A study of Mus musculus with 6 samples.

Results

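The anti-Müllerian hormone (AMH), inhibin and activin system was described in whole mouse testis through 10 genes chosen by symbol: the ligand genes Amh, Inha, Inhba and Inhbb, the receptor genes Amhr2, Acvr1, Acvr2a, Acvr2b and Bmpr1a, and the co-receptor gene Tgfbr3. All 10 were found among the 55850 gene rows of the table, and all 10 were among the 14238 genes with a mean of at least 1 FPKM (fragments per kilobase of gene length, scaled to library size) that were tested. The study measured bulk RNA of untreated testis in 3 conditional knockout (cKO) libraries and 3 wild-type (WT) libraries, and its series design compared gene expression between the 2 genotypes. By the title of the series the gene removed is Srsf2, a splicing factor gene, and the cells are Sertoli cells, the somatic nurse cells of the seminiferous tubule. No source used here gives the Cre driver, the deleted exons, the strain or the age of the mice. None states that each library is a different animal, and p-values therefore cover the spread among these libraries only, which may be technical.

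AMH is a hormone of Sertoli cells that makes the Müllerian ducts of the male fetus regress, and in the testis its transcript is a mark of immature Sertoli cells. It binds the type II receptor AMHR2, which pairs with a type I receptor such as BMPR1A or ACVR1 and acts through SMAD1, SMAD5 and SMAD9. Activins are dimers of the beta subunits encoded by Inhba and Inhbb, bind the type II receptors ACVR2A and ACVR2B and act through SMAD2 and SMAD3, whereas inhibins join a beta subunit to the alpha subunit encoded by Inha and, held by betaglycan (the product of Tgfbr3), block activin from its receptors. Sertoli cells secrete inhibin B, made of the Inha and Inhbb products, which lowers follicle-stimulating hormone.

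Upstream windows of the receptor gene Amhr2 and of both beta subunit genes are shown because Amhr2 and Inhbb had lower levels in cKO testis and Inhba did not. Each window holds the 250 bases before the RefSeq start on GRCm38.p6, 5′ to 3′ on the gene's strand, with capitals for the motif AGGTCA on either strand, the half-site of nuclear receptors such as the Nr5a1 product. Capitals also mark the motif TGATAA of GATA factors on either strand.
Amhr2, chr15:102445117-102445366, plus strand: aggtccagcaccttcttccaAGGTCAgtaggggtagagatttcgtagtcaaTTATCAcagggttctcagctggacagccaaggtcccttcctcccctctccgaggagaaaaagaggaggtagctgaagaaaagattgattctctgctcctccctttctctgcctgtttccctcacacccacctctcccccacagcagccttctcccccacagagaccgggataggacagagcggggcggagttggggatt
Inhbb, chr1:119422249-119422498, minus strand: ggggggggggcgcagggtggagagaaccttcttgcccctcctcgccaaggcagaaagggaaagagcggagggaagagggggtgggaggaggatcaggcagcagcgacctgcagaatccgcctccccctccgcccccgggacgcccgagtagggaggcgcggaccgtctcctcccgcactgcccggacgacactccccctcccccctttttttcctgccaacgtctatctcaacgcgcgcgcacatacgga
Inhba, chr13:16011601-16011850, plus strand: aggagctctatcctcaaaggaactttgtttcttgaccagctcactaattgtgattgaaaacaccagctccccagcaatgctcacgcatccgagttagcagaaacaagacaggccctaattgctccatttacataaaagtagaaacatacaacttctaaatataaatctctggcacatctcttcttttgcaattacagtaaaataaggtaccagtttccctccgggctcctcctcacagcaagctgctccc
Besides these motifs the search covered, on both strands, the SOX factor motif AACAAT and a further GATA factor motif, spelled AGATAA. It also covered the cyclic AMP response element, spelled TGACGTCA in full. None of these motifs overlaps another in the windows printed. The Amhr2 window held AGGTCA starting 230 bases before the start and, read on the opposite strand, TGATAA starting 199 bases before it. The Inhbb and Inhba windows held 0 matches of the 5 motifs. Of the other windows searched, that of Inha held AGGTCA starting 69 bases before its RefSeq start, which lies 532 bases from the outer start in GENCODE M21, and those of Acvr1, Acvr2a, Acvr2b and Bmpr1a held 0 matches. AGGTCA was present in 14.0% and TGATAA in 7.94% of all 32851 RefSeq windows of that length, so a match is common. GC content was 55.2% in the Amhr2 window, 68.0% in the Inhbb window and 43.2% in the Inhba window, beside a median of 52.4% over all windows. RefSeq windows were found for 8 of the 10 genes. Of these, 4 began at the outer start that GENCODE M21 gives, and Amh and Tgfbr3 had none.

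Levels were lower in every cKO library than in any WT library for 4 transcripts: Amh, its receptor gene Amhr2, and the inhibin subunit genes Inha and Inhbb. Inhba and Acvr2a had higher levels in every cKO library, and the cKO and WT ranges of Bmpr1a, Tgfbr3, Acvr1 and Acvr2b overlapped. No gene of the system passed the threshold over all tested genes: 0 of 10 had an adjusted p under 0.05 (limma on log2(FPKM + 1), Benjamini-Hochberg adjustment), where 0.014% of all tested genes did (0.00702% lower and 0.00702% higher), and limma voom on recovered reads also gave 0. At an unadjusted p under 0.05, 4 of 10 were lower and 1 was higher, against a background of 7.68% lower and 4.65% higher (12.3% in all) among all tested genes. That background depends on scaling, with 1094 lower and 662 higher genes on the deposited scale and 745 lower and 912 higher genes on the TPM scale (each library scaled to the same FPKM sum). The counts for the 10 genes were 4 and 1 on both scales. Groups that did not overlap were found for 4 of 10 genes with cKO lower and 2 of 10 with cKO higher, against 9.92% and 8.69% (18.6% in all) of all tested genes. The Sertoli cell markers treated below had a similar share of lower genes, 9 of 23 (39.1%) at an unadjusted p under 0.05, with 0 higher. Groups did not overlap for 10 of these 23 with cKO lower and for 0 with cKO higher. The median log2 difference of the 10 genes was -0.03, and that of all tested genes 0.00. Without cKO replicate 3 the count of lower genes was 2 (Amh and Amhr2), and the background of lower genes was 3.37%. Acvr2a, the 1 higher gene, was no longer counted once WT replicate 1 or 3, or cKO replicate 2 or 3, was left out, and Bmpr1a joined it when cKO replicate 1 was.

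**Figure D1:**
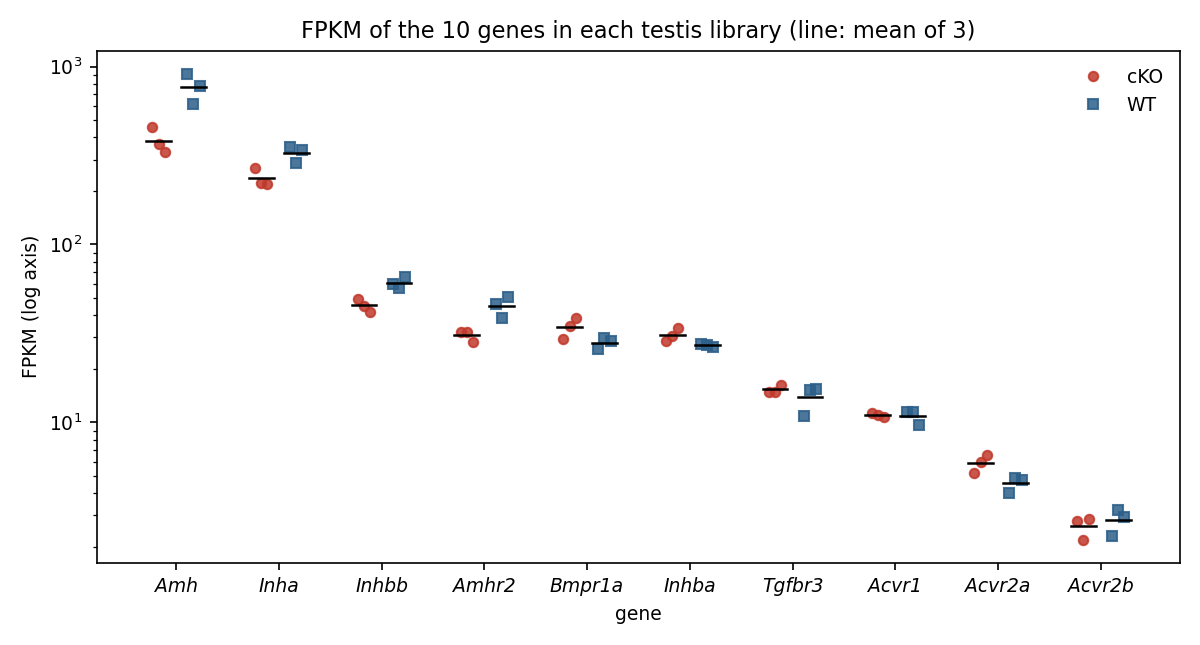
FPKM on a log axis (vertical) of the 10 genes (horizontal, by mean level), with 1 point per library, cKO in red circles left of WT in blue squares, and a line at each mean of 3. Amh, Inha, Inhbb and Amhr2 lie lower in all cKO libraries, and Inhba and Acvr2a lie higher.

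Depth was even, at 16185976 to 17281330 recovered reads in cKO and 16070287 to 16479907 in WT libraries. Srsf2 stood at 74.0, 87.3 and 87.3 FPKM in cKO and 127, 96.7 and 102 FPKM in WT libraries, a log2 difference of -0.38 that did not pass (limma adjusted p = 0.384). Other cells of the testis express Srsf2 too, so this level does not measure the deletion in Sertoli cells. The share of reads from the 18S ribosomal RNA sequence listed as Rn18s-rs5 was 0.727 to 0.835% in cKO and 1.58 to 2.09% in WT libraries. That row alone was counted, not all ribosomal RNA. Mitochondrial genes took 2.39 to 2.97% of reads in cKO and 1.66 to 1.98% in WT libraries, and the part of these shares in the results was not tested. All 23 Sertoli markers examined, Sox9 and Wt1 among them, were above a mean of 1 FPKM.

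Differences between the groups went with GC content across all genes, and several of the 10 genes have a GC content well above or below the middle of that trend. Of the tested genes, 2144 with a transcript GC content of 40 to 45% had a median log2 difference of 0.19, whereas the median was -0.17 for 3016 genes of 55 to 60% and -0.27 for 574 genes of 60 to 65%. Amh (65.4% GC), Inhbb (60.9%), Inha (59.7%), Acvr2b (59.3%) and Amhr2 (59.2%) are GC-rich, and Tgfbr3 (51.0%), Acvr1 (50.4%), Inhba (47.0%), Bmpr1a (46.4%) and Acvr2a (41.1%) are less so. Amh, Inha and Amhr2 are also short, at 1670, 1475 and 2005 bases, while Acvr2a, Bmpr1a, Inhba and Tgfbr3 are 5686 to 6545 bases long. After removal of the trends that each library showed with GC content and length, the log2 difference of Amh was -0.65, that of Amhr2 -0.27, that of Inhbb -0.19 and that of Inha -0.18. The higher genes were likewise nearer to 0, with Bmpr1a at 0.14, Acvr2a at 0.08 and Inhba at 0.07. On that scale 2 genes, Amh and Amhr2, were lower at an unadjusted p under 0.05 and 0 were higher, where 5.05% of the genes tested on that scale were lower and 3.22% higher.

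**Figure D2:**
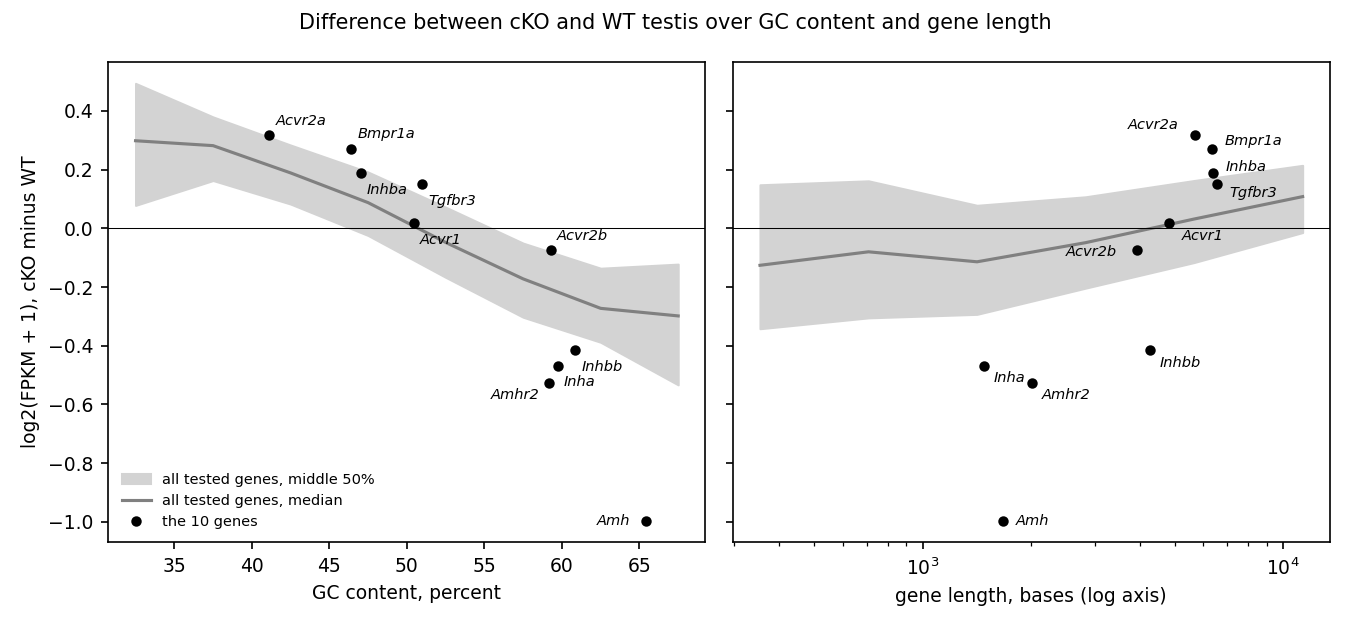
Log2 difference of FPKM + 1, cKO minus WT (vertical), against transcript GC content in percent (left) and gene length in bases on a log axis (right). Points are the 10 genes, and the grey line and band are the median and the middle 50% of all tested genes per bin. Amh, Amhr2, Inha and Inhbb lie below the band in both panels, and the median of all genes runs lower with higher GC content.

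The AMH hormone transcript was the most abundant of the system in all 6 libraries, and its level in cKO testis was 49.9% of the WT mean. Amh (ENSMUSG00000035262, chromosome 10, 80805243 to 80807648, plus strand, GRCm38) had 454, 366 and 329.7 FPKM in the cKO libraries, against 907, 619 and 777 FPKM in the WT libraries. The highest cKO library lay below the lowest WT library, and the spread within a group was wide, with a coefficient of variation of 16.7% in cKO and 18.8% in WT. These levels rest on 8986 to 12954 reads per cKO library and 17361 to 24102 per WT library, so counting error is small beside the spread. Among all genes Amh ranked 43rd to 68th by FPKM in the cKO libraries and 22nd to 24th in the WT libraries. The log2 difference was -1.0 (SE 0.20, 95% interval -1.46 to -0.53), and it did not pass over all genes (limma adjusted p = 0.360, between 0.158 and 0.840 over 16 other settings). In bulk tissue, fewer Sertoli cells and less of a transcript per Sertoli cell cannot be told apart.

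Amhr2 encodes the type II receptor that binds AMH, and Sertoli and Leydig cells express it. It had 32.2, 32.3 and 28.5 FPKM in the cKO libraries, against 46.1, 38.7 and 50.9 FPKM in the WT libraries (ENSMUSG00000023047, chromosome 15, 102445367 to 102454633, plus strand). No cKO library reached the lowest WT library, and the cKO mean was 68.5% of the WT mean. On the log2 scale Amhr2 differed by -0.53 (SE 0.13, 95% interval -0.84 to -0.22), with a limma adjusted p = 0.361. Of 7 Leydig cell markers 6 were tested, of which 4 had a positive and 2 a negative log2 difference (median 0.19), and their summed level overlapped between the groups. The part of Leydig cells in the level of Amhr2 was not tested.

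The type I receptors that AMH signalling can use did not share the direction of Amhr2. Bmpr1a had 29.6, 34.6 and 38.4 FPKM in the cKO libraries, against 25.9, 29.6 and 28.7 FPKM in the WT libraries (ENSMUSG00000021796, chromosome 14, 34410734 to 34503341, minus strand). The lowest cKO library and the highest WT library nearly coincided, so the groups overlapped, at 0.27 on the log2 scale (SE 0.13, limma adjusted p = 0.428). Acvr1, a type I receptor of both bone morphogenetic proteins and AMH, had 11.3, 11.0 and 10.7 FPKM in cKO and 11.5, 11.4 and 9.66 FPKM in WT libraries (ENSMUSG00000026836, chromosome 2, 58388644 to 58567157, minus strand). Its log2 difference was 0.02, with a 95% interval of -0.24 to 0.27 that leaves out any difference as large as that of Amh. Bmpr1a shares exon bases with the annotated gene Gm17110 on the opposite strand, so its count is uncertain where strand was not used.

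Inha encodes the alpha subunit that distinguishes inhibins from activins, and it was the second most abundant transcript of the system in every library. It had 269.6, 220.2 and 219.6 FPKM in the cKO libraries, against 353, 287 and 341 FPKM in the WT libraries (ENSMUSG00000032968, chromosome 1, 75507077 to 75510366, plus strand). cKO replicate 1 came nearest to the WT range, and the groups did not overlap. The cKO mean was 72.3% of the WT mean and the log2 difference -0.47 (SE 0.16, limma adjusted p = 0.379).

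The beta subunit genes stood on opposite sides of the WT levels. Inhbb, which gives the beta B subunit of inhibin B and activin B, had 49.7, 45.0 and 41.9 FPKM in the cKO libraries, against 60.1, 56.8 and 66.0 FPKM in the WT libraries (ENSMUSG00000037035, chromosome 1, 119415465 to 119422248, minus strand). Its cKO mean was 74.6% of the WT mean, or -0.41 on the log2 scale (SE 0.12, limma adjusted p = 0.372). Inhba, which gives the beta A subunit of activin A, had 28.8, 30.7 and 33.9 FPKM in the cKO libraries, against 27.5, 27.3 and 26.5 FPKM in the WT libraries (ENSMUSG00000041324, chromosome 13, 16011851 to 16031621, plus strand). The WT libraries lay within a coefficient of variation of 1.93%, the cKO libraries within 8.35%, and the cKO mean was 115% of the WT mean. The log2 difference of Inhba was 0.19 (SE 0.11, limma adjusted p = 0.497), and its 95% interval of -0.06 to 0.44 includes 0.

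The activin type II receptor genes were the least abundant of the 10. Acvr2a had 5.19, 6.02 and 6.57 FPKM in the cKO libraries, against 4.04, 4.87 and 4.76 FPKM in the WT libraries (ENSMUSG00000052155, chromosome 2, 48814109 to 48903269, plus strand). All cKO libraries lay above all WT libraries, with a log2 difference of 0.32 (SE 0.13, limma adjusted p = 0.393), and the gene shares exon bases with Orc4 on the opposite strand. Acvr2b had 2.80, 2.20 and 2.87 FPKM in cKO and 2.30, 3.20 and 2.95 FPKM in WT libraries (ENSMUSG00000061393, chromosome 9, 119402118 to 119434995, plus strand). The groups overlapped, on 152 to 188 reads per cKO library and 144 to 211 per WT library, and the log2 difference was -0.07 (SE 0.15, 95% interval -0.42 to 0.27).

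Tgfbr3, whose product betaglycan holds inhibin to the activin type II receptors, had 14.9, 14.8 and 16.3 FPKM in the cKO libraries, against 10.9, 15.3 and 15.4 FPKM in the WT libraries (ENSMUSG00000029287, chromosome 5, 107106570 to 107289629, minus strand). The groups overlapped and WT replicate 1 stood lowest. On the log2 scale Tgfbr3 differed by 0.15 (SE 0.15, limma adjusted p = 0.678), and by -0.0022 without WT replicate 1. The gene shares exon bases with Gm43422 on the same strand.

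**Figure D3:**
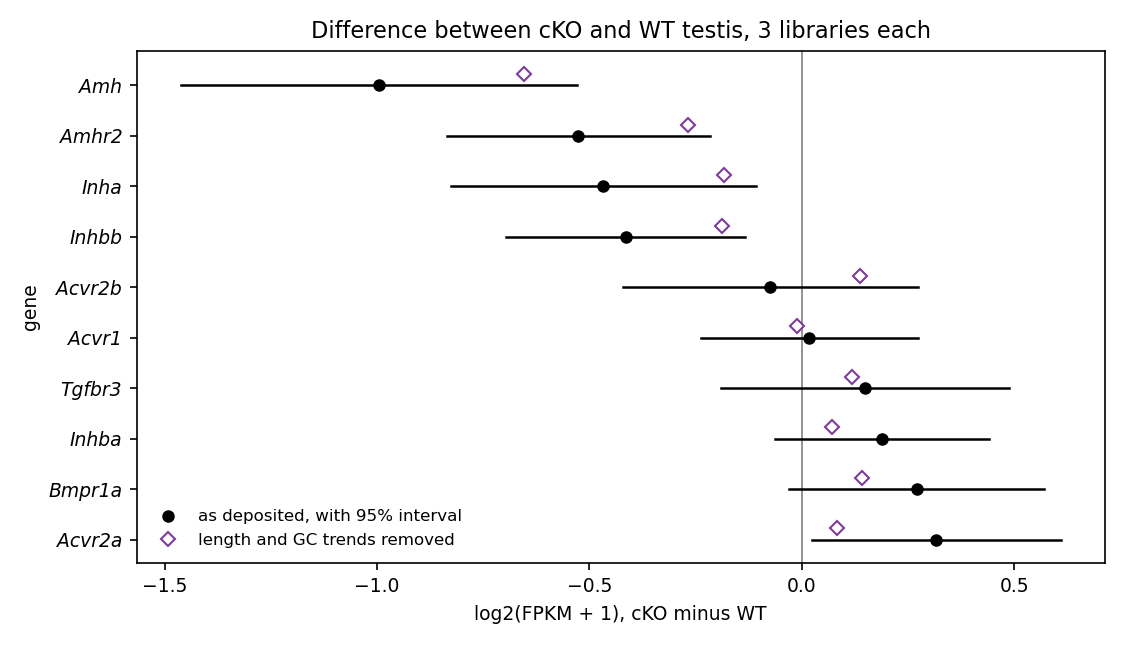
Log2 difference of FPKM + 1, cKO minus WT (horizontal), of the 10 genes (vertical). Filled points with 95% limma intervals use the deposited values, and open diamonds are the same differences with trends on length and GC content removed. The intervals of Amh, Amhr2, Inha, Inhbb and Acvr2a leave out 0, and all diamonds of these genes lie nearer to 0 than their filled points.

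The order of levels was Amh, Inha and Inhbb from the top in both groups, with separate ranges between these neighbours, and Acvr2a and Acvr2b at the bottom. In WT testis Amhr2, at 38.7 to 50.9 FPKM, lay above Bmpr1a, at 25.9 to 29.6 FPKM. In cKO testis the same ranges, 28.5 to 32.3 FPKM for Amhr2 and 29.6 to 38.4 FPKM for Bmpr1a, overlapped, and Amhr2 was above Bmpr1a in 1 of 3 libraries. Bmpr1a and Inhba overlapped in both groups, and Tgfbr3 and Acvr1 overlapped in WT testis alone.

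Ratios between transcripts of a library do not depend on its scaling and were compared for 6 pairs. Amh was 1.69, 1.66 and 1.50 times Inha in the cKO libraries and 2.57, 2.15 and 2.28 times Inha in the WT libraries. The groups did not overlap, and the log2 ratio was 0.53 lower in cKO on average, at 0.69 ± 0.09 in cKO and 1.22 ± 0.13 in WT (SD, n = 3 each; exact two-sided permutation p = 0.1, the smallest that 3 against 3 can give, 0.12 adjusted over the 6 ratios). Against the geometric mean of the 23 Sertoli markers, Amh stood at a ratio of 28.1, 21.8 and 22.2 in the cKO libraries and 39.9, 33.6 and 38.1 in the WT libraries. The ratio was lower in every cKO library, with a log2 ratio of 4.58 ± 0.20 in cKO and 5.21 ± 0.13 in WT (SD, n = 3 each; exact permutation p = 0.1, adjusted 0.12). With trends on length and GC content removed, these 2 differences in log2 ratio were -0.47 and -0.38, and neither brought the groups to overlap (exact permutation p = 0.1 for each). Of the 23 Sertoli markers, the cystatin gene Cst9 alone was as low as Amh on the deposited scale, at a log2 difference of -1.01. The next lowest were Aard at -0.74 and the homeobox gene Rhox5 at -0.70 (-1.04, -0.67 and -0.58 for these genes with the trends removed). With the trends removed Amh itself stood at -0.65, and Aard and Rhox8, at -0.67 and -0.65, were about as low. On the deposited scale others differed little, such as Clu at -0.09 and Wt1 at -0.07, and 2 were positive, Sox8 at 0.04 and Kitl at 0.23.

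Inhbb was 1.72, 1.47 and 1.23 times Inhba in the cKO libraries and 2.18, 2.08 and 2.49 times Inhba in the WT libraries. The beta B transcript thus exceeded the beta A transcript in all 6 libraries and by less in each cKO library, with a difference in log2 ratio of -0.62 (exact permutation p = 0.1, adjusted 0.12), or -0.26 with length and GC trends removed. Inha was 3.43, 2.91 and 2.90 times the sum of both beta transcripts in the cKO libraries and 4.03, 3.42 and 3.68 times in the WT libraries. There cKO replicate 1 reached WT replicate 2, so these groups overlapped (difference in log2 ratio -0.27, exact permutation p = 0.2, adjusted 0.2), and the difference was -0.09 with the trends removed. For the AMH receptors, the ratio of Amhr2 to Bmpr1a was 1.09, 0.935 and 0.741 in the cKO libraries and 1.78, 1.31 and 1.78 in the WT libraries. These did not overlap either (difference in log2 ratio -0.82, exact permutation p = 0.1, adjusted 0.12), and the difference was -0.42 with the trends removed. Acvr2b to Acvr2a was at 0.540, 0.365 and 0.437 in the cKO libraries and at 0.571, 0.657 and 0.620 in the WT libraries, without overlap. That difference in log2 ratio of -0.48 (exact permutation p = 0.1, adjusted 0.12) turned to 0.088 with the trends removed.

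**Figure D4:**
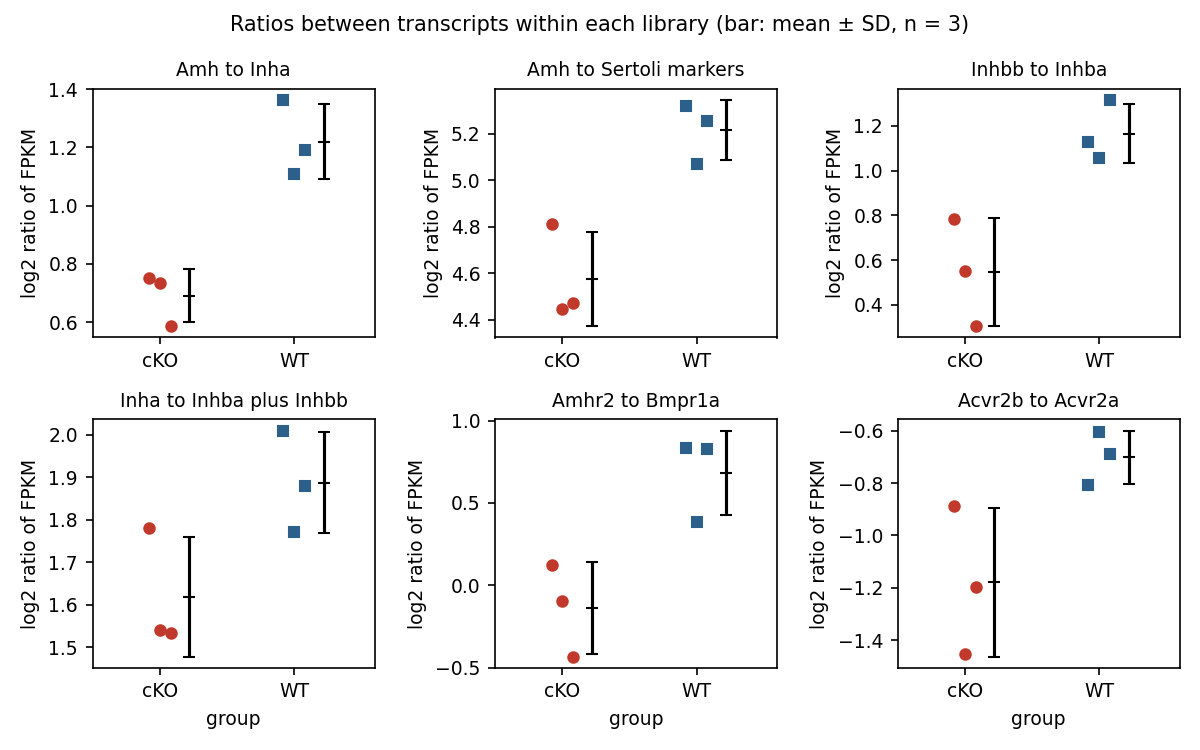
Log2 ratio of FPKM between transcripts within each library (vertical) for 6 pairs, cKO in red circles left of WT in blue squares, with the mean and SD of 3 libraries beside each group. The groups overlap in the panel of Inha to the sum of Inhba and Inhbb, and the cKO libraries lie lower without overlap in the other 5 panels.

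Of 64 other genes, those of the pathway and the 2 chromosomal neighbours of Amh, 49 were tested. Of these, 0 passed over all tested genes by limma or by limma voom. At an unadjusted p under 0.05, 5 were lower and 2 higher in cKO testis, shares of 10.2% and 4.08% that lie near the 7.68% and 4.65% of all tested genes. The neighbour Sf3a2, which is no pathway gene, is among the 5 lower ones. The median log2 difference of the 49 was -0.10 (0.00 for all tested genes). The count of lower genes was 3 without WT replicate 2 or cKO replicate 2 and 1 without cKO replicate 3, and the count of higher genes was 0 or 1 without 5 of the 6 libraries, cKO replicate 1 being the exception. The largest differences among the 49 were those of Id3 and Id1, which bone morphogenetic proteins induce through SMAD1 and SMAD5. Id3, an inhibitor of helix-loop-helix factors, had 53.3, 53.3 and 48.9 FPKM in the cKO libraries and 105, 63.2 and 86.7 FPKM in the WT libraries. Its relative Id1 had 39.4, 34.1 and 31.4 FPKM in the cKO libraries and 78.9, 42.0 and 51.3 FPKM in the WT libraries. Both were lower in all cKO libraries, at log2 differences of -0.67 and -0.66 (limma adjusted p = 0.372 and 0.379), or -0.49 and -0.46 with length and GC trends removed. WT replicate 1 was the highest library for both. The related Id2 and Id4 did not share their pattern, with overlapping groups at a log2 difference of -0.21 for Id2 and 0.18 for Id4 (limma adjusted p = 0.719 and 0.594). Skil, a repressor of SMAD2 and SMAD3 that activin signalling induces, was higher in all cKO libraries, at 10.9, 14.0 and 14.3 FPKM against 10.2, 10.4 and 10.5 FPKM in the WT libraries (log2 difference 0.30, limma adjusted p = 0.403, 0.10 with the trends removed). Of 10 response genes, 2 were lower and 1 was higher at an unadjusted p under 0.05 (7.68% and 4.65% of all tested genes).

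Among 8 transducers, of which 7 were tested, the inhibitory Smad7 had 21.6, 17.6 and 19.7 FPKM in the cKO libraries and 23.2, 24.9 and 24.9 FPKM in the WT libraries, without overlap (log2 difference -0.30, limma adjusted p = 0.381, -0.11 with the trends removed). Smad6, the other inhibitory SMAD gene, stood at -0.29 and Smad3 at -0.14 on the log2 scale (limma adjusted p = 0.510 and 0.701). Of 16 other ligand genes 8 were tested and 7 had a negative difference, Tgfb1 at -0.32, Tgfb3 at -0.26 and Bmp6 at -0.21 (lowest limma adjusted p = 0.405, Tgfb1). Inhbe and Mstn, ligand genes of liver and muscle, were listed at 0 in every library. Of 8 other receptor genes 6 were tested, with Tgfbr1, a type I receptor of TGF-beta, at a log2 difference of 0.35, Bmpr2 at 0.26 and Tgfbr2 at 0.20 (lowest limma adjusted p = 0.404, Tgfbr1). Of 11 genes for binding proteins, antagonists and processing enzymes 7 were tested, with Pcsk6, a proprotein convertase, at 0.34 and Fstl3, a follistatin-like activin binder, at -0.32 on the log2 scale (lowest limma adjusted p = 0.494, Fstl3).

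Genes known to act on Amh transcription, 8 transcription factor genes and Fshr for the receptor of follicle-stimulating hormone, had smaller log2 differences than Amh. Of these 9 regulators, 7 of which are also in the Sertoli marker list, 7 had a negative log2 difference (median -0.13). At an unadjusted p under 0.05, 1 of them (11.1%), Dmrt1, was lower, against 7.68% of all tested genes. Dmrt1, a factor of Sertoli and germ cells, had 15.8, 15.3 and 12.8 FPKM in the cKO libraries and 21.6, 18.6 and 17.2 FPKM in the WT libraries (log2 difference -0.36, limma adjusted p = 0.380, -0.14 with the trends removed). Nr5a1, the orphan receptor that activates Amh, was at -0.30 and Sox9, which starts Amh transcription, at -0.23 (limma adjusted p = 0.479 and 0.508), and the libraries of the groups overlapped for both.

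The chromosomal neighbours of Amh lie close by, with 318 bases between the end of Sf3a2, a splicing factor gene on the same strand, and the start of Amh, and 847 bases between the end of Amh and the convergent Jsrp1. Sf3a2 had 23.5, 13.3 and 15.0 FPKM in the cKO libraries and 19.8, 25.8 and 29.8 FPKM in the WT libraries, which overlapped (log2 difference -0.54, limma adjusted p = 0.403). Jsrp1 had 7.95, 6.90 and 4.55 FPKM in the cKO libraries and 8.63, 5.45 and 6.81 FPKM in the WT libraries, which also overlapped (log2 difference -0.10, limma adjusted p = 0.849). WT replicate 1, the highest library for Amh, was the lowest of its group for Sf3a2. Sf3a2 shares exon bases with Plekhj1 on the opposite strand.

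Over the 6 libraries, the profile of centred log2(FPKM + 1) nearest to that of Amh was that of Cox8a, a subunit gene of cytochrome c oxidase, at a Euclidean distance of 0.19. Next came Bex2 at 0.28, the small nucleolar RNA gene Snora57 at 0.28, Scrn2 at 0.28 and Rnaseh2c, a subunit gene of ribonuclease H2, at 0.29. Their transcripts had a GC content of 54.5 to 62.2% and lengths of 148 to 2050 bases, and Snora57 rested on 15 to 51 reads per library. Within the system, Inha ranked 295th of the tested genes by this distance (0.68), Amhr2 298th (0.69) and Inhbb 630th (0.81), while Acvr2a, at 1.78, ranked 12533rd.

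Markers of Sertoli cells, the main source of Amh, Inha and Inhbb, lay lower in cKO testis in sum. The summed level of the 23 markers was 888 to 939 FPKM in the cKO libraries and 1025 to 1272 FPKM in the WT libraries. On the deposited scale 21 of 23 had a negative log2 difference, with a median of -0.30 and none past the threshold (limma). With length and GC trends removed the markers lay apart, and most stayed negative. Cst9 stood at -1.04, Aard at -0.67, Rhox8 at -0.65, Rhox5 at -0.58, Shbg at -0.48, Gdnf at -0.44 and Cldn11 at -0.37. Wt1, Gata4 and Clu stood at 0.01, -0.01 and 0.01, and Kitl and Sox8 at 0.10 and 0.28. Wt1, Clu, Kitl and Sox8 were the only positive markers on that scale. Germ cell markers summed to 184 to 276 FPKM in cKO and 142 to 288 FPKM in WT libraries, and Leydig markers to 1495 to 1743 and 1276 to 1903 FPKM, so both sums overlapped. Of 8 germ cell markers tested, 7 had a positive log2 difference (median 0.28). At an unadjusted p under 0.05, 2 (25%) were higher, against 4.65% of all tested genes: Tex14 at 0.49 and Dazl at 0.52. With the trends removed these 2 stood at 0.36 and 0.19, while Kit turned to -0.04 and Nanos3 to 0.01. Stroma markers summed to 529 to 686 FPKM in the cKO libraries and 688 to 738 FPKM in the WT libraries, and endothelial markers to 68.7 to 76.6 and 77.6 to 87.7 FPKM. Macrophage markers summed to 17.7 to 23.2 FPKM in the cKO and 23.7 to 29.0 FPKM in the WT libraries, and peritubular myoid markers to 175 to 207 and 172 to 206 FPKM. Red blood cell markers summed to 4860 to 6438 FPKM in the cKO libraries and 2712 to 5657 FPKM in the WT libraries. Of the endothelial markers 5 of 5 had a negative log2 difference, and of the red blood cell markers 5 of 5 had a positive one. The stroma and macrophage markers were split in sign, unlike their sums. Of 5 stroma markers 2 were negative and 3 positive (median 0.01), and of 6 macrophage markers 3 were negative and 3 positive (median -0.05). Of 5 ovarian somatic markers, 3 had a mean below 1 FPKM, Foxl2 and Cyp19a1 among them, and the sum was 11.2 to 14.4 FPKM in the cKO and 14.6 to 18.3 FPKM in the WT libraries. Most of that sum was Rspo1, with a mean of 8.52 FPKM in cKO and 11.5 FPKM in WT. Its log2 difference of -0.39 was -0.10 with the trends removed. Fshr, also in this list, is a Sertoli marker too. The part of these cell types in the differences of the 10 genes was not tested.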

How the data were processed

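RNA of whole testis was measured in 3 cKO and 3 WT libraries, made with a SMARTER mRNA-Seq kit from Trizol-extracted RNA, per the labels' protocols. Their results came as 1 table, in which the authors deposited FPKM for each gene. GRCm38 and mm10 are the builds named, per the submitters' processing notes, and no source used here gives the aligner, the counter, the annotation or the use of strand. Of 52081 identifiers shared with GENCODE M21, 1499 had the same start in the table, so positions are those of GENCODE M21 on GRCm38. Reads per gene were recovered as FPKM times the deposited gene length over each library's smallest step, and came out whole for 100% of values (tolerance 0.01).

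Log2(FPKM + 1) was tested, cKO minus WT, by limma 3.58.1 in R 4.3.3 with its trend option. Genes entered at a mean of 1 FPKM or more, and p-values were adjusted over all of these by Benjamini-Hochberg, at a threshold of 0.05. This scale understates changes of low genes. Log2 ratios of FPKM within a library were compared by exact two-sided permutation over the 6 samples. Other settings were pseudocounts of 0.1 and 0.5, a filter at a mean of 5 FPKM or none, TPM and median-of-ratios scaling, limma without trend, a replicate block, limma voom on reads (at least 10 in at least 3 libraries), leaving out each library, and removal of each library's trend on length and GC content (natural splines, 5 degrees of freedom; GC known for 97.9% of tested genes). The last was added for ratios after the data were seen. The procedure was tested on simulated data. The labels name no batch.

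The 10 genes, the lists and the ratios were chosen with earlier results of these data known. Named besides the 10 were Srsf2, both neighbours of Amh, the 3 tested genes with the lowest p of each pathway list and the 5 genes nearest to Amh, except 1 gene that is not reported here. Id2, Id4, Inhbe, Mstn, Fshr and the cell type markers were named outside this rule, after their values were seen. Software besides R comprised Python 3.11.15, numpy 2.4.6, pandas 2.3.3 and, for plots, matplotlib 3.10.9.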

Additional observations from a re-analysis of the deposited data

How the results depend on the processing

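Of 159 values of the 10 genes under other settings, 154 kept their direction and their side of the threshold and 5 turned in sign: Acvr1 to -0.012 with length and GC trends removed and -0.057 without WT replicate 3 (-0.057 to 0.056 leaving out 1 library), Acvr2b to 0.14 with the trends removed and 0.014 without cKO replicate 2 (-0.17 to 0.014), and Tgfbr3 to -0.0022 without WT replicate 1 (-0.0022 to 0.23). Acvr2b was not tested at a mean FPKM of at least 5. The other filters, limma without trend and the replicate block leave each log2 difference as it was, so no direction could turn there. A kept direction does not mean a kept size. With the trends removed, Inha went from -0.47 to -0.18 and Inhbb from -0.41 to -0.19. Of other named genes, Bmpr2 turned to -0.042 with the trends removed, and Jsrp1 to 0.24 with the trends removed, 0.045 without WT replicate 1 and 0.098 without cKO replicate 3 (-0.25 to 0.098). Of 54 ratio values, 53 kept their direction, and Acvr2b to Acvr2a turned to 0.088 with the trends removed. The cause was not tested, and the replicate block could not turn a ratio. Among the 10 genes at an unadjusted p under 0.05, the count of lower genes was 2 with the trends removed and 2 to 4 leaving out 1 library. The count of higher genes was 0 with the trends removed and 0 to 2 leaving out 1 library. Of all tested genes, 5.05% were lower and 3.22% higher with the trends removed. Leaving out 1 library, 3.37 to 10.3% of all tested genes were lower and 1.66 to 7.42% higher. In the pathway list, which holds both neighbours of Amh, the TPM scale gave 3 lower and 1 higher (5.23% and 6.41% of all tested genes). Leaving out 1 library gave 1 to 7 lower and 0 to 2 higher in that list.

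Deviations from the group mean correlated at 0.095, -0.33 and 0.39 between same-numbered libraries (numbers 1, 2 and 3). Between libraries of different numbers they correlated at -0.45 to 0.35. With 3 centred libraries a group, these values cannot settle whether the numbers pair the samples. With the replicate block 0 of the 10 genes passed over all genes. At an unadjusted p under 0.05, 4 were lower and 1 was higher, against 7.19% and 4.54% of all tested genes. In this balanced design the block cannot change a log2 difference, only its p-value, which for Amh was 0.331 (limma, adjusted). Over all genes the block gave 0 calls where the fit without it gave 2. Depth limits Acvr2b, with at most 211 reads in a library, more than Amh, and 3 libraries a group limit every comparison.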
